A study of Drosophila melanogaster with 40 samples.

Results

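The 10 genes described here encode core proteins of the piRNA pathway of Drosophila melanogaster: piwi, aub, AGO3, spn-E, zuc, armi, krimp, qin, vret and tej. They were taken by name from the deposited gene count table, where each name matched 1 row, so that they are 10 of 17490 rows. All 40 RNA libraries of the series were used. The rule used names alone, though the genes were picked with earlier results of these data known.

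The series measured whole-body RNA in a fly model of feline hypertrophic cardiomyopathy, a thickening of the heart muscle. Flies carried a UAS transgene of feline MYBPC3 in the A31P form, the R820W form or the wild-type form (WT), inserted at the attP2 site, and the control line (attP2) carried the empty site. Every genotype, the control included, also carried the TinCΔ4-Gal4 driver, which is active in the heart, so that the transgene was driven in few cells of the body that was sampled. Each genotype was collected as exercised females, nonexercised females, exercised males, nonexercised males and larvae. The adults were 1 week old, exercise lasted 1 h, and the labels gave no sex for the larvae. Each of these 20 groups had 2 libraries, each from a pool of 10 animals, so that a set of one sex, age and treatment held 8 libraries.

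PIWI proteins are Argonaute proteins that carry small RNAs called piRNAs, and these guide them to transposon transcripts. In Drosophila the pathway is best known in the gonads, where piRNA precursors are cut by the nuclease Zuc on mitochondria and where Aub and AGO3 cut transposon and precursor RNA by turns in the ping-pong cycle, in a zone around germline nuclei called the nuage. Piwi enters the nucleus and silences transposons at the level of transcription, in germ cells and in the somatic cells of the ovary. In whole-body RNA, fewer cells of a type and less RNA per cell cannot be told apart.

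The libraries held 18493813 to 26917796 counts over all genes, with a median of 21691892. The table's rRNA genes took 4.64% to 27.4% of the counts and 7SL RNA took 2.09% to 18.2%. Marker genes followed the labels. The summed level of 18 eggshell genes was 1294 to 5544 CPM, the count scaled to library size, in the 16 female libraries and at most 15.1 CPM in the nonexercised males, and 18 testis genes summed to 1794 to 2664 CPM in the male libraries against at most 2.29 CPM in females. In larvae the testis genes summed to 243 to 902 CPM. There were 2 libraries of exercised males that held female-specific RNA. In A31P exercised males replicate 2 the eggshell sum was 2091 CPM and in R820W exercised males replicate 2 it was 138 CPM, against 3.13 to 6.56 CPM in the other 6 libraries. For the 10 genes, the sex, exercise and interaction results that use exercised males are given with and without these 2 libraries, and other values of exercised males include them unless stated. CPM values throughout were scaled by TMM factors over the 40 libraries.

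The 10 genes lie on 4 chromosome arms (release 6 coordinates, as the count table and the annotation give them). On 2L, piwi lies at chr2L:10982205-10987420 and aub at chr2L:10997819-11001476, and zuc lies at chr2L:11988735-11989882. On 2R, tej lies at chr2R:14300103-14302353 and krimp at chr2R:16238103-16240722. On 3L, armi lies at chr3L:3461317-3466303 and AGO3 at chr3L:23554593-23689640. On 3R, spn-E lies at chr3R:15837419-15844415, qin at chr3R:18591027-18650137 and vret at chr3R:22742954-22745581. Some exon bases of 5 of them are shared with genes on the opposite strand, from 38 bases in qin to 191 in piwi, and whether the counting used strand is not given in the sources used here.

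Females and males were compared first among nonexercised flies. All 10 genes were higher in females than in males, by 2.94 to 6.71 on the log2 scale (edgeR's quasi-likelihood test, averaged over the 4 genotypes, with p-values adjusted over 14095 genes). A gene was called when its adjusted p was under 0.05 and its log2 fold change was over 0.5 in size. By this rule 33.6% of all tested genes were called higher in females and 80.1% were called in either direction, so that a call was common here. The median log2 fold change was 3.83 over the 10 genes and -0.33 over all tested genes.

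**Figure D1:**
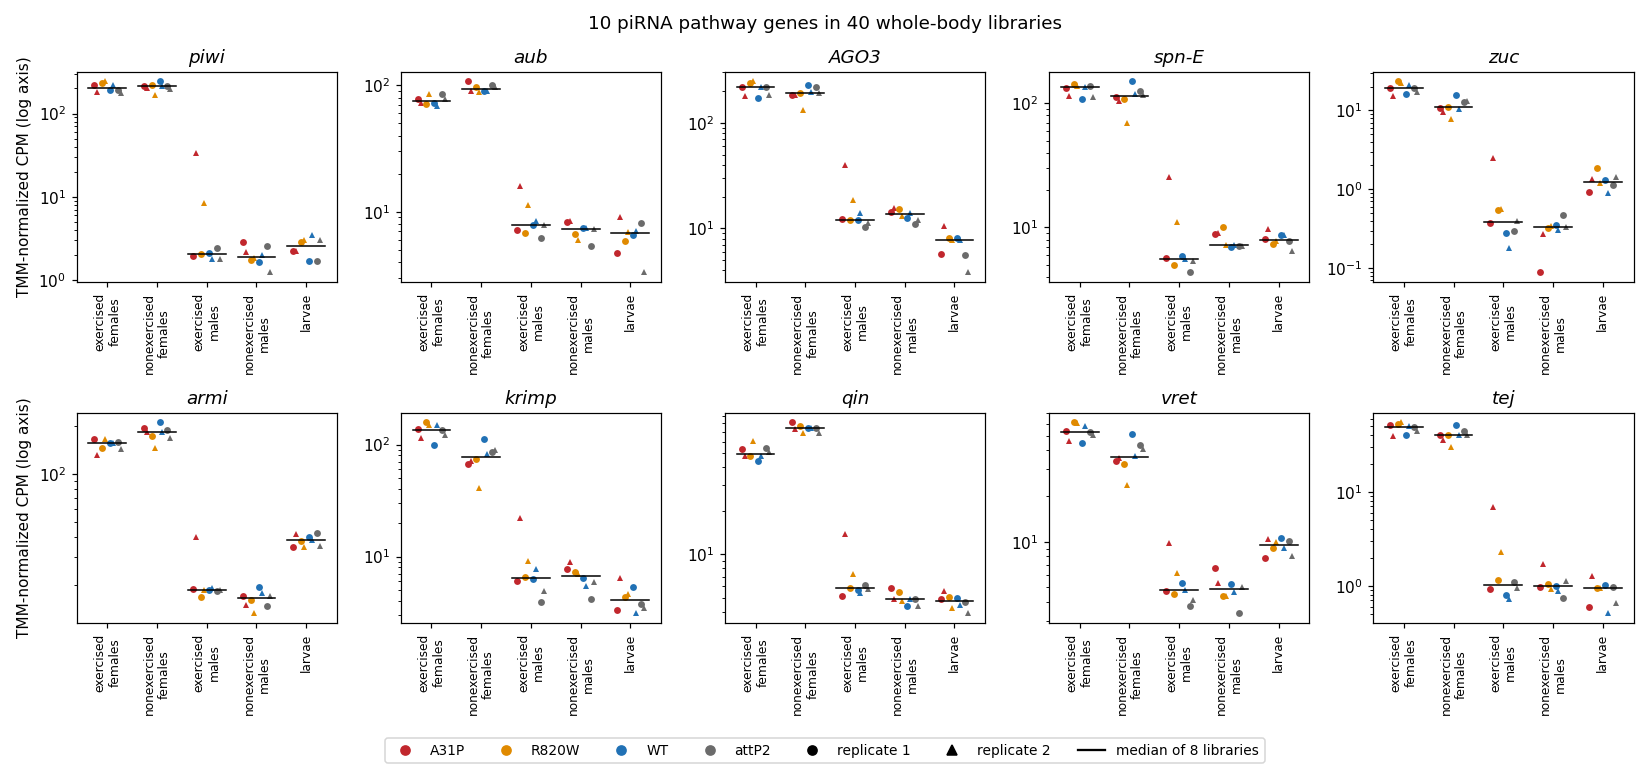
Level of each of the 10 genes in every library (TMM-normalized CPM, log axis, a different range in each panel), by set on the x axis. Colours mark the genotype, circles and triangles mark replicates 1 and 2, and bars mark the median of 8 libraries. In every panel the 16 female libraries sit above all male and larval libraries, and A31P exercised males replicate 2 is the highest male library.

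Of the 3 PIWI proteins, piwi differed most. It was at 168 to 243 CPM in nonexercised females, with a median of 214, and at 1.24 to 2.83 CPM in nonexercised males, with a median of 1.92. The log2 fold change was 6.71 ± 0.12 (SE, adjusted p = 5.91e-17), which ranked 127 among the 14095 genes. The median in males was 0.893% of that in females. The same ratio was 0.126% for the eggshell genes, and among 4 oocyte or nurse-cell genes it was 0.0628% for osk, 0.166% for bcd, 0.416% for otu and 0.466% for nos. These 4 were picked after their values were seen, from a list of 6 that also held grk and orb. All 6 summed to a median of 125 CPM in nonexercised males against 2290 CPM in nonexercised females. Without grk and orb the medians were 3.59 and 1839 CPM. The part of female RNA in the low piwi level of males was not tested.

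The slicer genes of the ping-pong cycle differed by less. AGO3 was at 133, 191 and 226 CPM in nonexercised females (lowest, median and highest of 8 libraries), against 11.002, 13.5 and 15.5 CPM in nonexercised males, a log2 fold change of 3.83 ± 0.08. For aub the values were 88.6, 93.6 and 107 CPM in females against 5.38, 7.36 and 8.41 CPM in males, a log2 fold change of 3.76 ± 0.07. No library of one sex reached the other for any of these genes.

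The genes that make and load piRNAs showed the same direction. armi, an RNA helicase that brings precursor RNA to Zuc, was at 145, 185 and 211 CPM in females against 13.2, 16.5 and 19.3 CPM in males, a log2 fold change of 3.49 ± 0.07. zuc itself was the least abundant of the 10 genes, at 7.88, 10.997 and 15.8 CPM in females against 0.0885, 0.329 and 0.468 CPM in males, where it had 2 to 10 counts a library. Its log2 fold change was 5.23 ± 0.18, and the low male counts limit that value. spn-E, a helicase with a Tudor domain that is needed for the ping-pong cycle, was at 69.1, 114.8 and 150.3 CPM in females against 6.95, 7.23 and 10.1 CPM in males, a log2 fold change of 3.83 ± 0.10.

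The other 4 genes encode Tudor-domain proteins, which bind methylated arginines on PIWI proteins. tej, a nuage protein, had the largest difference among them, with 29.8, 40.4 and 52.1 CPM in females against 0.749, 0.990 and 1.70 CPM in males and a log2 fold change of 5.28 ± 0.13. qin, which keeps ping-pong between Aub and AGO3, was at 68.3, 74.9 and 81.3 CPM in females against 4.37, 4.88 and 5.84 CPM in males (log2 fold change 3.91 ± 0.07). krimp, which holds AGO3 and Aub in the nuage, was at 41.1, 77.9 and 111 CPM in females against 4.21, 6.71 and 8.94 CPM in males (3.56 ± 0.13). vret had the smallest difference of the 10, with 23.8, 36.2 and 51.5 CPM in females against 3.37, 4.84 and 6.73 CPM in males (2.94 ± 0.11).

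The difference was present in each genotype. All 10 genes were called higher in nonexercised females in A31P, R820W, WT and attP2 flies, where 32.2%, 31.3%, 34.8% and 32.1% of tested genes were called higher. The log2 fold change of piwi in these genotypes was 6.36, 6.77, 6.98 and 6.72. For all 10 genes the lowest female library was above the highest male library, a pattern that 31.5% of 14845 genes with at least 100 counts in all showed in that direction.

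The same contrast was made in exercised flies. All 10 genes were again called higher in females, where 34.8% of 14210 tested genes were called higher, with a median log2 fold change of 3.93 over the 10 genes and -0.69 over all tested genes. piwi was at 174, 204.5 and 243 CPM in exercised females. In exercised males it was at 1.78 to 2.41 CPM in 6 libraries, 33.6 CPM in A31P replicate 2 and 8.35 CPM in R820W replicate 2. Its log2 fold change was 5.57 ± 0.49 with all 8 male libraries and 6.65 without these 2, against 6.71 in nonexercised flies. Leaving them out raised the other 9 log2 fold changes too, with spn-E at 4.08 with them and 4.56 without them and tej at 5.00 and 5.62, and all 10 genes stayed called. In that fit 4873 of 14414 tested genes were called higher in females.

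**Figure D2:**
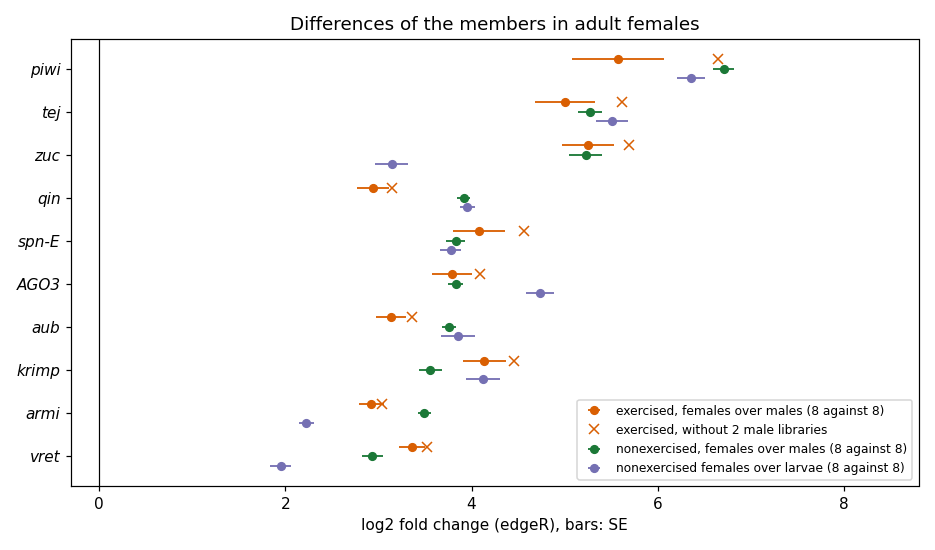
log2 fold change of the 10 genes for exercised females over exercised males, nonexercised females over nonexercised males, and nonexercised females over larvae (x axis, log2, points with SE bars, 8 libraries against 8). Crosses give the exercised contrast without the 2 male libraries that held female-specific RNA. All values lie above 0, and piwi has the largest value among the genes in each contrast.

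In A31P exercised males replicate 2, all 10 genes were above the other 6 libraries. The excess was 10.6% (vret) to 18.4% (qin) of the exercised female level, with a median of 13.0%. The summed level of osk, bcd, nos and otu, 4 oocyte or nurse-cell genes picked after their values were seen, gave an excess of 14.0% in that library, and the eggshell genes gave 117%. The list of 6 female germline genes also held grk and orb, which were left out of this sum. In R820W exercised males replicate 2, 9 of the 10 genes were above the other 6 libraries, with a median excess of 3.16%, against 3.38% for the germline genes and 7.51% for the eggshell genes. armi was the exception at 18.6 CPM, within the 16.8 to 19.0 CPM of the others. The share of all genes that lay above the other 6 libraries was not counted for either library.

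The makeup of the PIWI mRNAs differed between the sexes. Levels of different genes were compared per kilobase of exon, as CPM per kb. piwi made up 40.7% to 43.9% of the summed level of piwi, aub and AGO3 in nonexercised females, against 6.08% to 13.8% in nonexercised males. AGO3 made up 33.1% to 40.05% in females and 55.4% to 63.3% in males, where it had the largest share, and aub made up 16.6% to 23.3% in females and 29.2% to 36.6% in males. These shares do not depend on how libraries are scaled to each other, and the ranges of the sexes did not overlap for any of the 3 genes. In exercised flies the piwi share was 39.1% to 44.4% in females and 7.55% to 12.9% in the 6 male libraries, while A31P replicate 2 had 38.2% and R820W replicate 2 had 22.1%. In larvae AGO3 and aub had similar shares, with medians of 43.4% and 39.995%, and piwi had 17.1%.

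**Figure D3:**
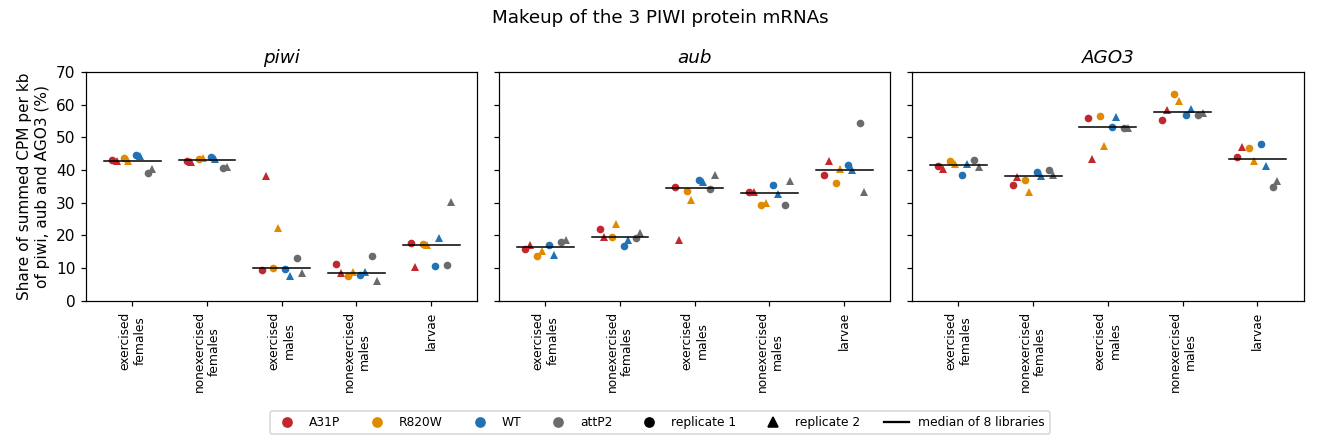
Share of piwi, aub and AGO3 in their summed level per kilobase (y axis, percent), in each library by set. Colours mark genotypes, circles and triangles mark replicates, and bars mark medians of 8 libraries. The piwi share is near 43% in both female sets and 8.59% in nonexercised males, with A31P exercised males replicate 2 at 38.2%.

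Ranked per kilobase, nonexercised females had most RNA of piwi (median 69.8 CPM per kb), AGO3 (60.2) and armi (44.4), then aub (31.1), krimp (30.6), spn-E (24.5), tej (20.8), vret (15.6), qin (12.3) and zuc (9.58). The ranges of neighbours in this order overlapped throughout. Nonexercised males had most of AGO3 (4.25 CPM per kb), armi (3.95) and krimp (2.63), and piwi ranked 8 at 0.623. The gap between spn-E (1.55) and qin (0.800) was the only one in males where neighbouring ranges did not overlap. In larvae armi led at 9.14 CPM per kb, followed by vret at 4.10, and the ranges of armi, vret and the next gene, AGO3 at 2.44, did not overlap.

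Adults were also compared with larvae. All 10 genes were called higher in nonexercised females than in larvae, against 34% of 13575 tested genes called higher, with a median log2 fold change of 3.90 over the 10 genes and -0.06 over all tested genes. piwi was at 1.69, 2.55 and 3.43 CPM in larvae and its log2 fold change was 6.36 ± 0.15. tej was at 0.508, 0.943 and 1.26 CPM in larvae (5.50 ± 0.17), and AGO3 at 3.83, 7.76 and 10.6 CPM (4.74 ± 0.15). The smallest differences were those of armi, at 34.5, 38.04 and 42.4 CPM in larvae (2.23 ± 0.08), and vret, at 7.82, 9.56 and 10.5 CPM (1.95 ± 0.12).

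Nonexercised males and larvae differed in both directions. AGO3 (log2 fold change 0.95 ± 0.13) and krimp (0.61 ± 0.16) were called higher in males, and zuc (-2.03 ± 0.23), armi (-1.22 ± 0.08) and vret (-0.94 ± 0.11) were called lower in males. That made 5 of 10 genes called, where 74.7% of 14271 tested genes were called, 40.3% higher and 34.4% lower in males. The zuc level was 0.329 CPM in males against 1.25 CPM in larvae (medians), with 14 to 31 counts a library in larvae. piwi (-0.31 ± 0.21), aub (0.14 ± 0.19), spn-E (-0.01 ± 0.09), qin (0.08 ± 0.10) and tej (0.28 ± 0.23) did not pass, and the ranges of these 5 genes overlapped between males and larvae. The krimp call was lost when A31P larvae replicate 1 was left out (0.50, adjusted p = 0.00422). With library size alone as the scaling, aub, qin and tej were called higher in males and vret was no longer called.

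Across the 5 sets, the female sets held the highest levels of every gene, and no male or larval library reached a female one. Of 14845 genes, 31.5% lay higher without overlap in nonexercised females than in nonexercised males. The share was 33.5% for exercised females over exercised males and 28.1% for nonexercised females over larvae. The ranges of exercised and nonexercised females overlapped for 8 genes and did not overlap for aub and qin. Without overlap, 12.7% of all genes lay lower and 6.99% higher in exercised females. Among larvae, exercised males and nonexercised males, ordered by median, the only neighbours whose ranges did not overlap were larvae and nonexercised males for vret. Of all genes, 32.4% lay lower and 31.7% higher in nonexercised males than in larvae without overlap. Without A31P and R820W replicate 2, exercised males also lay below larvae without overlap for armi, at up to 19.0 CPM against 34.5 CPM or more in larvae. The same held for zuc, at up to 0.539 CPM against 0.890 CPM or more, and for vret, at up to 5.31 CPM against 7.82 CPM or more. It held for spn-E too, at up to 5.87 CPM against 6.50 CPM or more, and spn-E also lay below nonexercised males. The share of all genes with these patterns in the 6 libraries was not counted.

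Exercised and nonexercised flies were sequenced on different flow cells, so that exercise and flow cell cannot be told apart in the following values. In exercised females, krimp, zuc and vret were called higher and qin was called lower than in nonexercised females, which made 4 of 10 genes where 41.7% of 11263 tested genes were called, 16.2% higher and 25.5% lower. krimp was at 99.7, 136 and 158 CPM in exercised females against 41.1, 77.9 and 111 CPM in nonexercised females, a log2 fold change of 0.83 ± 0.12 (adjusted p = 6.54e-05). zuc was at 15.1, 19.0 and 23.2 CPM against 7.88, 10.997 and 15.8 CPM, a log2 fold change of 0.78 ± 0.10, and vret was at 44.9, 53.1 and 61.1 CPM against 23.8, 36.2 and 51.5 CPM, a log2 fold change of 0.57 ± 0.09. The ranges of the sets overlapped for these 3 genes.

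qin was at 43.8, 49.5 and 60.6 CPM in exercised females against 68.3, 74.9 and 81.3 CPM in nonexercised females, and it fell by 0.52 on the log2 scale (SE 0.05, adjusted p = 5.35e-06). All 8 exercised libraries were below all 8 nonexercised ones. Its call rested on the limit of 0.5, since leaving out any of 6 single libraries brought the log2 fold change to between -0.50 and -0.48 and lost the call. aub was also lower in every exercised library, at 68.8, 75.5 and 85.4 CPM against 88.6, 93.6 and 107 CPM, with a log2 fold change of -0.28 ± 0.05 that was under the size limit. Exercised libraries were all below nonexercised ones for 12.7% of 14845 genes. piwi stood at 0.01 ± 0.06 and AGO3 at 0.16 ± 0.08.

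By genotype, the number of the 10 genes called between exercised and nonexercised females was 4 in A31P, 6 in R820W, 1 in WT and 0 in attP2 flies, while 28.1%, 55.7%, 15.9% and 13.1% of all tested genes were called in these genotypes. In R820W flies AGO3, spn-E, zuc, krimp, vret and tej were called higher, and krimp had the largest value (1.40). The nonexercised R820W side of that contrast held replicate 2, the library lowest for all 10 genes in its set, and the difference between genotypes was not tested. rRNA took 12.7% to 19.8% of counts in exercised females and 6.48% to 13.5% in nonexercised females, and its part in these results was not tested.

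**Figure D4:**
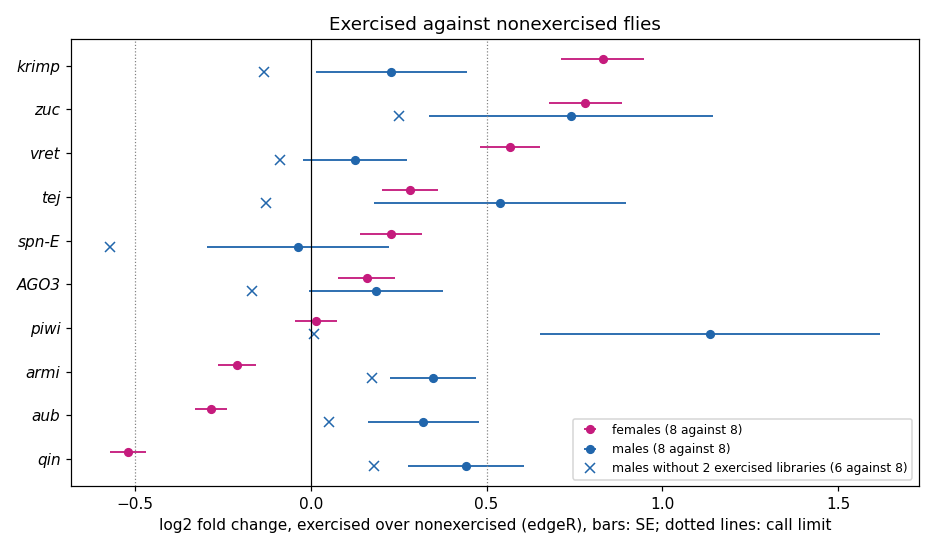
log2 fold change of the 10 genes for exercised over nonexercised flies (x axis, points with SE bars), in females and in males. Crosses give males without the 2 exercised libraries that held female-specific RNA, and dotted lines mark the size limit of 0.5. In females krimp, zuc and vret lie above 0.5 and qin lies below -0.5, and in males the value for piwi is 1.14 with all libraries and 0.01 without the 2.

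In males none of the 10 genes was called between exercised and nonexercised flies, where 11.3% of 14090 tested genes were called. 7SL RNA took 2.09% to 3.56% of counts in exercised males and 11.3% to 18.2% in nonexercised males. With rRNA and 7SL RNA genes left out of library sizes, 1571 of 14018 genes were called. The part of 7SL RNA in these values was not tested otherwise. At an unadjusted p under 0.05, 3 genes passed: piwi (log2 fold change 1.14 ± 0.48), armi (0.35 ± 0.12) and qin (0.44 ± 0.17). DESeq2 called none and edgeR's likelihood ratio test called piwi. Without A31P and R820W exercised males replicate 2, piwi had a log2 fold change of 0.01, and spn-E was called lower in exercised males (-0.57, adjusted p = 0.000452). spn-E was at 4.35 to 5.87 CPM in those 6 libraries against 6.95 to 10.1 CPM in nonexercised males. Without the 2 libraries 1479 of 14241 tested genes were called, 762 higher and 717 lower in exercised males.

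The difference between the sexes in their response was tested as an interaction, exercised over nonexercised females against exercised over nonexercised males. qin (-0.93 ± 0.18, adjusted p = 0.000309), aub (-0.57 ± 0.17) and armi (-0.52 ± 0.14) were called, 3 of 10 genes where 28.4% of 14457 tested genes were called, 19.6% with a negative value as these 3 had. Without the 2 male libraries the calls were qin (-0.65), krimp (1.02), spn-E (0.85) and vret (0.71), and aub (-0.28) and armi (-0.33) fell under the size limit. In that fit 4614 of 14705 tested genes were called, 1835 with a positive and 2779 with a negative value. Only qin was called in both fits. Leaving out A31P replicate 2 alone ended the aub call (-0.39), as did leaving out R820W replicate 2 alone (-0.46). The armi call was lost without any of 8 single libraries, among them both of these.

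The genotype comparisons ask what the MYBPC3 transgenes did. In 25 comparisons of A31P, R820W or WT with attP2, and of A31P or R820W with WT, within each of the 5 sets, none of the 10 genes was called. The share of tested genes called in the comparisons of A31P, R820W and WT with attP2, and of A31P and R820W with WT, was 0.112%, 0.112%, 0.0747%, 0% and 0.00934% in exercised females. It was 0.0994%, 0.127%, 0.0723%, 0.127% and 1.04% in nonexercised females. In exercised males it was 0.568%, 0.841%, 1.14%, 0.0288% and 0.0647%, and in nonexercised males 1.07%, 0.679%, 0.97%, 0.109% and 0.664%. In larvae it was 0.0389%, 0.0389%, 0.0233%, 0.0156% and 0%, so that few genes of any kind were called between genotypes. zuc was too low to be tested among nonexercised males. Among 245 tests of a gene in a comparison, 26 had an unadjusted p under 0.05, of which 11 were in A31P exercised males and included the library with female-specific RNA. DESeq2 called 4 and the likelihood ratio test 2.

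The nearest to a call was R820W against WT in nonexercised females. krimp was at 74.2 and 41.1 CPM in the R820W libraries and at 111 and 81.6 CPM in the WT libraries, with a log2 fold change of -0.68 ± 0.23 (adjusted p = 0.108). vret was at 32.6 and 23.8 CPM in R820W against 51.5 and 36.6 CPM in WT (-0.58 ± 0.18, adjusted p = 0.0996), and spn-E at 107 and 69.1 CPM against 150.3 and 119 CPM (-0.55 ± 0.19, adjusted p = 0.107). With the replicate number as a block, which in these sets marks a shared sequencing lane, spn-E (-0.56, adjusted p = 0.0395) and vret (-0.58, adjusted p = 0.0433) were called. DESeq2 called spn-E, krimp and vret. The share of all genes called in these 2 alternatives is not given. In the reported quasi-likelihood test of this comparison, 3666 of 11063 genes of any kind had an unadjusted p under 0.05.

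R820W replicate 2 was the lowest of the 8 nonexercised female libraries for all 10 genes, from 0.08 below the set's median on the log2 scale for aub to 0.92 below for krimp, and WT replicate 1 was the highest for 8 of the 10. R820W replicate 1 lay between 0.15 below and 0.05 above the median. With replicate 1 left out, so that replicate 2 stood alone for R820W, the log2 fold change of krimp against WT moved from -0.68 to -1.11. Against attP2 it moved from -0.59 to -1.01. The fit then assumes that the lone R820W library varies like the other groups, so that these larger values restate that replicate 2 was low. R820W replicate 2 also had the largest total (26917796 counts), rRNA share (13.5%) and 7SL share (12.7%) of its set, and their part in these values was not tested. In exercised females krimp had a log2 fold change of 0.21 in R820W over attP2 and was not called.

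**Figure D5:**
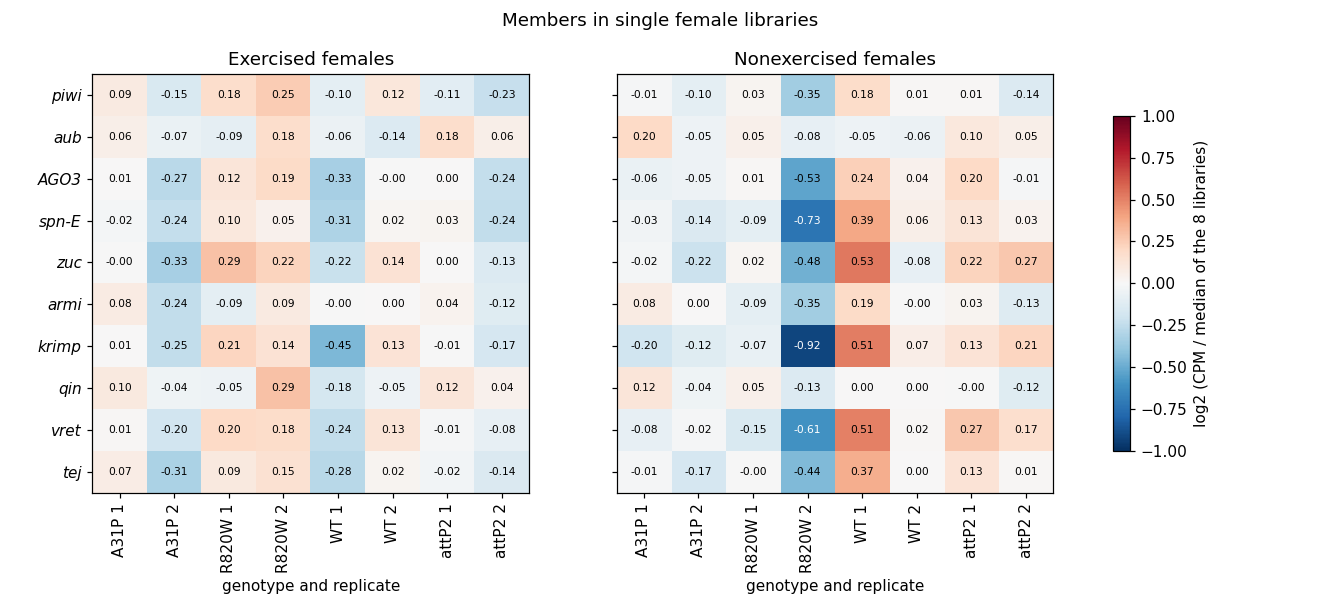
Level of each gene in each female library as the log2 ratio to the median of the 8 libraries of its set (colour and printed value), exercised females on the left and nonexercised females on the right. R820W replicate 2 is the lowest nonexercised library for all 10 genes, reaching -0.92 for krimp, while exercised libraries lie between -0.45 and 0.29.

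Among males krimp was one of several members with their lowest mean in attP2 flies. In nonexercised males it was at 7.70 and 8.94 CPM in A31P, 7.31 and 6.95 CPM in R820W, 6.47 and 5.51 CPM in WT, and 4.21 and 5.96 CPM in attP2. The comparison of A31P with attP2 gave 0.72 ± 0.19 (adjusted p = 0.117) and was called by the likelihood ratio test. In exercised males WT libraries had 6.35 and 7.70 CPM against 3.97 and 4.89 CPM in attP2, a log2 fold change of 0.70 ± 0.54 that was called once the 2 libraries with female-specific RNA were left out (0.67, adjusted p = 0.0113). The means of AGO3 (11.5 CPM nonexercised, 10.8 CPM exercised) and vret (4.19 and 3.93 CPM) were also lowest in attP2 males. So was spn-E (7.10 and 4.88 CPM), with WT close at 7.11 CPM in nonexercised males. For piwi, zuc and armi another genotype was lowest in both male sets, and aub, qin and tej differed between the sets. The testis sum was 1794 and 2415 CPM in nonexercised and 1998 and 2133 CPM in exercised attP2 males, and its part was not tested.

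Over the 20 group means of log2 CPM, the correlation between pairs of them was 0.894 to 0.997 with a median of 0.98, as a description of points that share the step between females and the other sets. Within nonexercised females the median over 45 pairs was 0.84 across 8 libraries, and the highest was 0.97 for spn-E and krimp. Within nonexercised males it was 0.26, and zuc and vret, of which zuc had 2 to 10 counts, stood at -0.89. In exercised males the median was 0.93 over 8 libraries and -0.23 over the 6 without female-specific RNA. The genes outside all lists whose group means were most like the mean pattern of the 10 were wech (Pearson's r = 0.998), apt, mos, muskelin and stet, out of 13462 genes compared over 20 groups. wech was at a median of 368 CPM in nonexercised females and 34.8 CPM in nonexercised males, and 1183 genes had an r over 0.95.

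A list of 31 other genes of the piRNA pathway gave the context. In nonexercised flies 27 of them were called higher in females and none lower, with a median log2 fold change of 2.35. Of all tested genes 33.6% were called higher and 46.5% lower in this contrast. All 8 genes of cluster transcription and export and all 7 of nuclear silencing rose, as did 5 of 6 nuage and Tudor partners and 7 of 10 processing factors. Both regulators listed apart, ovo (3.59) and tj (4.51), were called higher in females as well. The largest values were those of moon (6.95), the germline transcription factor for piRNA clusters, vas (6.01), a nuage helicase, shu (5.25), a co-chaperone, and boot (4.82), an export factor. boot shares 388 of its 1933 exon bases with CG8080 on the same strand. The 4 that did not pass were papi (-0.40), mino (-0.21), tud (0.11) and Hen1 (0.26). The value of piwi (6.71) lay between those of moon and vas, and that of vret (2.94) lay above the median of the list.

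Against larvae, 27 of the 31 genes were called higher and none lower in nonexercised females, where 34% of all tested genes were called higher, with a median log2 fold change of 1.71. In nonexercised males 4 were called higher and 12 lower than in larvae, of 30 tested, with a median of -0.35, where 40.3% of all tested genes were called higher and 34.4% lower. Between exercised and nonexercised females 4 were called higher and 2 lower, where 16.2% of all tested genes were called higher and 25.5% lower. Between exercised and nonexercised males, where 11.3% were called in either direction, 2 were called higher with all 8 exercised libraries, nxf3 (0.61) and vas (1.12), whose level in A31P exercised males replicate 2 was 29.1 CPM against 2.50 to 3.65 CPM in the 6 libraries without female-specific RNA. nxf3 shares 4496 of its 7512 exon bases with ssp2 on the same strand, so that its counts are uncertain. No gene of the list was called in a genotype comparison.

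The 8 genes of the miRNA and siRNA pathways served as a comparison with other small RNA machinery. In nonexercised flies Dcr-1 (1.42), drosha (1.49), pasha (1.64), r2d2 (1.06) and Dcr-2 (0.92) were called higher in females, loqs (-1.19) was called lower, and AGO1 (0.14) and AGO2 (0.28) did not pass. Of all tested genes 80.1% were called in either direction and 33.6% higher in females. None of the 8 log2 fold changes reached the 2.94 of vret, the smallest of the 10 genes. AGO1 and AGO2 encode the Argonautes of these pathways, as piwi, aub and AGO3 encode those of the piRNA pathway.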

How the data were processed

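The deposited table gave whole-number counts per gene, which the authors made from directional rRNA-depleted libraries (reads trimmed with Cutadapt, residual rRNA reads removed with TopHat, the rest aligned to the fly genome and counted in CLC Genomics Workbench), and deposited TPM values, which were used only to check gene lengths. Counts were analysed as deposited with edgeR 4.0.16 in R 4.3.3 (filterByExpr, TMM, quasi-likelihood test, Benjamini-Hochberg adjustment over all tested genes). Sex, age and exercise contrasts were averaged over 4 genotypes. The 10 members and all lists were chosen with earlier results of these data known. All members were named. Of the 31 other pathway genes those with the 4 highest and 4 lowest sex differences were named, and likeness was Pearson's r over 20 group means.

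Larvae and nonexercised flies shared a flow cell, with replicate 1 on lane 7 and replicate 2 on lane 8. Same-numbered samples had deviations correlated at -0.22 to 0.42 within these sets. Exercised females were on lane 1 and exercised males on lane 3 of another flow cell, so that sex and lane cannot be told apart there. p-values cover the spread between pools of animals, which in larvae and nonexercised flies includes any difference between lanes 7 and 8. They do not cover a difference between flow cells.

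Alternatives were DESeq2 1.42.0, the likelihood ratio test, other scalings, no count filter, the replicate block, leaving out libraries and fits of 2 groups. The fits were tested on simulated data. The filter used a minimum count of 10, the libraries held 18493813 to 26917796 counts, and counting error is largest for zuc and tej in males. Of the table's gene IDs, 17216 were in the Ensembl annotation (BDGP6.54) and 98.3% of these had the same coordinates.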

Additional observations from a re-analysis of the deposited data

Results flagged for a closer look

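In A31P exercised males replicate 2, 9 of the 10 genes lay far above the other 7 libraries by Dixon's test at the 95% level, which chance passes in about 1 in 20 groups. The levels there were 33.6 CPM for piwi, 39.4 CPM for AGO3, 25.6 CPM for spn-E, 2.52 CPM for zuc, 39.7 CPM for armi, 22.2 CPM for krimp, 13.8 CPM for qin, 9.77 CPM for vret and 6.98 CPM for tej. The eggshell sum in that library was 2091 CPM.

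AGO3 was far below the others at 133 CPM in R820W nonexercised females replicate 2, and tej was far above the others at 1.70 CPM in A31P nonexercised males replicate 2.

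The response to exercise differed between females and males for aub (-0.57 on the log2 scale), armi (-0.52) and qin (-0.93) by the interaction test. Without the 2 male libraries that held female-specific RNA the values were -0.28, -0.33 and -0.65, and only qin stayed called.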

How the results depend on the processing

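All 10 genes stayed called higher in females than in males, with and without exercise, and higher in nonexercised females than in larvae under every alternative run. The count of 5 between nonexercised males and larvae was 4 to 5 when 1 library was left out, and that of 4 between exercised and nonexercised females was 3 to 4. The count of 0 between exercised and nonexercised males became 1 with the likelihood ratio test, 6 with library size alone and 1 without A31P and R820W exercised males replicate 2 (0 to 4 leaving out single libraries, with 4 without A31P exercised males replicate 1 and 1 without R820W exercised males replicate 1). The interaction count of 3 became 5 with the likelihood ratio test and 2 to 5 leaving out single libraries, with 5 without WT nonexercised females replicate 1 or WT exercised females replicate 1. The genotype count of 0 became 3 with DESeq2, 1 with the likelihood ratio test and 2 with the replicate block in nonexercised females (0 to 9 leaving out single libraries, with 9 without R820W nonexercised females replicate 1), 1 with the likelihood ratio test or library size alone in nonexercised males (0 to 4, with 4 without attP2 nonexercised males replicate 2), and 1 with DESeq2, with the 2 compared groups alone or without the 2 libraries in exercised males (0 to 21, with 21 without A31P exercised males replicate 1 and 1 without replicate 2). These genotype counts are summed over the comparisons within a set, so that 1 gene can be counted more than once. The share of all genes called in these genotype refits is not given, so that the counts cannot be set against it. Where 1 library of a genotype is left out, the other is assumed to vary like the other groups. The replicate block changed no other call.

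Values that were not called in the reported fit and changed sign are the following. Between nonexercised males and larvae, piwi was 0.15 and spn-E 0.44 with library size alone, spn-E was 0.030 with DESeq2 and 0.031 with RLE size factors, and leaving out single libraries took aub to -0.0053 and spn-E to 0.0029. Between exercised and nonexercised females, library size alone took piwi to -0.17 and AGO3 to -0.024, and piwi was -0.022 without R820W nonexercised females replicate 2. Between exercised and nonexercised males, AGO3 was -0.17, krimp -0.13, vret -0.086 and tej -0.13 without the 2 libraries, AGO3 was -0.081, krimp -0.071 and vret -0.023 without A31P replicate 2 alone, and spn-E was 0.26 with library size alone and 0.14 without A31P replicate 1. In the interaction, piwi was 0.061 and tej 0.46 without the 2 libraries, tej was 0.31 without A31P replicate 2 alone, library size alone gave AGO3 -0.51, spn-E -0.22, zuc -0.44 and vret -0.041, and leaving out single libraries took AGO3 to -0.015 and zuc to -0.13.

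Library size alone moved the median of all genes to 0.51 for nonexercised females against larvae, where TMM gave -0.06, to 0.51 for nonexercised males against larvae (0.06), -0.19 for exercised against nonexercised females (-0.02), 0.31 for males (0.01) and -0.59 for the interaction (-0.11). The share of called genes that were higher moved to 60.6%, 69.1%, 22.1%, 89.6% and 4.54% in these comparisons, in the same order, where TMM gave 45.9%, 54.0%, 38.8%, 51.01% and 30.8%. Depth limits zuc and tej in males, and 2 libraries a group limit the genotype comparisons. The number of genes called with library size alone was over 1.5 times the reported number for males with exercise and for the interaction, at 3359 and 6504 genes, where TMM gave 1592 and 4105.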

Other observations

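Some genes of the somatic ovary were lower in exercised than in nonexercised females, and they were picked after their values were seen. tj, a transcription factor of somatic gonad cells, was at a log2 fold change of 2.30 between females and males in exercised flies and 4.51 in nonexercised flies, and it was called lower in exercised than in nonexercised females (-1.78). fs(1)Yb, which builds the Yb body of follicle cells, was called lower too (-1.11), with an interaction of -1.29. Of 18 eggshell genes, which follicle cells make, 10 were called lower and 1 higher in exercised females, where 25.5% of all tested genes were called lower and 16.2% higher. flam, the precursor of follicle-cell piRNAs, was at 1.90, 2.78 and 4.48 CPM in exercised females (lowest, median and highest) against 4.19, 6.53 and 7.35 CPM in nonexercised females, and no test of it is given. piwi, which both germ cells and follicle cells express, had a log2 fold change of 0.01 in the same contrast. Exercise and flow cell cannot be told apart in these values, and those that use exercised males include the 2 libraries with female-specific RNA.

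Stellate repeats are silenced in testis by piRNAs from the Su(Ste) repeats. The 13 Stellate genes in the table summed to 1.01 to 5.22 CPM in exercised males, or to at most 2.73 CPM without the 2 libraries that held female-specific RNA, and to 0.581 to 1.31 CPM in nonexercised males, and the 27 Su(Ste) genes summed to 2.01 to 4.11 CPM in nonexercised males and at most 0.0765 CPM in nonexercised females. These copies share sequence, so that their counts are uncertain.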
